A study of Mus musculus with 14 samples.

Results

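The 10 genes described here are those encoding the stress-responsive transcription factor NRF2 (Nfe2l2), its inhibitor KEAP1 (Keap1) and 8 antioxidant enzymes that NRF2 is known to induce, namely Nqo1, Gclc, Gclm, Hmox1, Srxn1, Txnrd1, G6pdx and Gpx2. They were taken by gene symbol from the 54532 genes of the count table, and 10 of 10 were found. Their mRNA was measured in the ileum mucosa of male WT mice (NCoR1 flox/flox, n = 7) and IKO mice (NCoR1 flox/flox with Cre recombinase under the villin promoter, n = 7), with 1 library per mouse. Both genotypes carried the floxed NCoR1 alleles, and both were on a high-fat diet (HFD) for 15 weeks, which the methods of the study start at 7 to 8 weeks of age. A figure legend of the study instead gives an older age, with a period of chow before the HFD. NCoR1 is a corepressor that nuclear receptors recruit to keep their target genes silent. Villin-driven Cre acts in the epithelium, while the mucosa was scraped and also holds immune and stromal cells that keep NCoR1.

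NRF2 is held in the cytosol by KEAP1, which hands it to an ubiquitin ligase for degradation. When oxidants or electrophiles modify cysteines of KEAP1, NRF2 escapes, enters the nucleus, pairs with a small MAF protein and binds antioxidant response elements near its target genes. NRF2 is therefore controlled largely at the protein level, and its mRNA need not follow its activity. The targets make glutathione, reduce peroxides and oxidized thiols, supply NADPH for these reactions, and detoxify quinones and heme. In the intestine this defence works in an epithelium that meets dietary oxidants, bile acids and bacteria.

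The core of the antioxidant response element was searched as TGACNNNGC on both strands of RefSeq promoter windows, which run from 250 bases before to 50 bases after each start (GRCm38.p6). Of the 10 genes, 8 had at least 1 window there, and 5 of these 8 held the core, namely Nfe2l2, Gclm, Srxn1, Txnrd1 and G6pdx. Gclc and Hmox1 had no entry. The core was present in 13.99% of the 27025 genes with a window. The stricter sequence TGACTCAGC, a special case of the core, was in 0 of the 8 genes and in 0.5032% of all genes with a window. The match in Srxn1, GCTAGGTCA on the opposite strand, lay from 29 to 37 bases after the start. The 4 sequences printed here are the 250 bases before the start, 5′ to 3′ on the strand of the gene, and they are shown because the core lies within them. Capitals mark the core, which is on the strand of the gene in Nfe2l2 and on the opposite strand in the other 3.
Nfe2l2, chr2:75704664-75704913, minus strand: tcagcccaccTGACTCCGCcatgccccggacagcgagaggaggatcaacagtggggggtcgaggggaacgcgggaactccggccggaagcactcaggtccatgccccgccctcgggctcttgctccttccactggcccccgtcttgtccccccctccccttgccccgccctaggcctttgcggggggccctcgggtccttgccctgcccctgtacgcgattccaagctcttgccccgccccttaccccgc
Gclm, chr3:122245307-122245556, plus strand: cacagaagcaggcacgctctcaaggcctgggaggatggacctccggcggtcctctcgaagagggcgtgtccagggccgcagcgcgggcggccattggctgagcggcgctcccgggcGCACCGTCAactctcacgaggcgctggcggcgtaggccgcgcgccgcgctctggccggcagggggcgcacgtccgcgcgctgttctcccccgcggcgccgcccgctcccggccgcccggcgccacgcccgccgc
Txnrd1, chr10:82858956-82859205, plus strand: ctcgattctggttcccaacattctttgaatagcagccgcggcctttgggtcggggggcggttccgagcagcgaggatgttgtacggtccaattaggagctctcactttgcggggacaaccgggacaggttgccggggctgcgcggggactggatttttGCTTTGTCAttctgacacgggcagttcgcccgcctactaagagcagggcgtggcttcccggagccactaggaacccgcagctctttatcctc
G6pdx, chrX:74428881-74429130, minus strand: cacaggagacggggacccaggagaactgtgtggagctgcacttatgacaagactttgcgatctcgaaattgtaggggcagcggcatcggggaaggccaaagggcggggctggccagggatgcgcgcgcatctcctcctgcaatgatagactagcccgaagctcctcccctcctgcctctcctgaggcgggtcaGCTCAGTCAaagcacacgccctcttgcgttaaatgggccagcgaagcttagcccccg
The core began 240 bases before the start in Nfe2l2, 134 bases before it in Gclm, 92 bases before it in Txnrd1 (1 of its 3 windows) and 57 bases before it in G6pdx. Of the 4 genes, Gclm and G6pdx are among the genes called higher in IKO mice, whereas Nfe2l2 and Txnrd1 are not. The start is that of RefSeq, and the stretches printed for Txnrd1 and G6pdx lie within the bounds of these genes in the count table. For Nfe2l2 the bases just after the RefSeq start were not found in a transcript of the gene in GENCODE, another annotation. A match is a stretch of letters and not a measured binding site.

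Between 14749669 and 21557468 reads per mouse were counted on genes. The share of these reads from mitochondrially encoded genes was 3.49% to 10.3% in 12 mice, but 23.9% in WT 3 and 50.3% in IKO 4. Levels are given as CPM (counts scaled to a common library size) after TMM normalization, and TMM factors ran from 0.579 in IKO 4 to 1.53 in WT 7. Ncor1 itself was 135 ± 31.3 CPM (SD, n = 7) in WT and 50.6 ± 11.0 CPM (SD, n = 7) in IKO mice, with no overlap (log2 fold change -1.41, standard error 0.18, adjusted p = 0.00051 by edgeR). In the epithelium, summed enterocyte markers ran from 23087 CPM in WT 7 and 27734 CPM in WT 1 to 93002 CPM in WT 2, whereas they were between 49509 and 68319 CPM in IKO mice, and 0 of these 9 markers passed the test. Summed smooth muscle markers were 10855 CPM in WT 4, 5.08 to 62.4 CPM in the other WT mice and 4.53 to 796 CPM in IKO mice. Among the 75 markers tested in 13 lists, 2 passed the test, the tuft cell gene Avil lower and the macrophage gene Cd14 higher in IKO mice. Some lists lay wholly on a single side of 0, though of their genes Avil alone passed. The log2 fold change was below 0 for 6 of 6 smooth muscle genes (median -3.10), 5 of 5 fibroblast genes (median -2.00), 5 of 5 B and plasma cell genes (median -1.82) and 4 of 4 tuft cell genes (median -0.68, Avil included), and above 0 for 4 of 4 erythrocyte genes (median 1.20). The summed markers of each of these lists overlapped between genotypes, with 6.28 to 354 CPM in WT and 8.32 to 44.7 CPM in IKO mice for fibroblasts, 111 to 707 and 84.7 to 425 CPM for B and plasma cells, 21.98 to 50.7 and 9.07 to 26.1 CPM for tuft cells, and 3.25 to 24.3 and 9.59 to 52.3 CPM for erythrocytes. Their part in the differences described here was not tested.

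G6pdx, which forms NADPH, and Gclc and Gclm, the subunits of glutamate-cysteine ligase, were higher in the IKO ileum, while Nfe2l2, Keap1 and the other 5 enzymes did not pass the test. The call of G6pdx held in 28 of 28 alternative ways of running the comparison and those of Gclc and Gclm in 10 of 28 each. With edgeR's quasi-likelihood test and Benjamini-Hochberg adjustment over 13846 genes, Gclc, Gclm and G6pdx passed as higher in IKO mice (threshold 0.05 on the adjusted p), 0 of the 10 genes were lower, and 7 did not pass. Over all genes tested, 8.67% passed this test, 4.38% as higher and 4.28% as lower in IKO mice. Of the 10 log2 fold changes 9 were above 0, with a median of 0.54, beside a median of -0.09 for all genes tested. Every IKO mouse lay above every WT mouse for 2 of the 10 genes, G6pdx and Gpx2, which was the case for 1.83% of all genes tested. In bulk mucosa, more cells that express a gene and more mRNA per cell cannot be told apart.

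**Figure D1:**
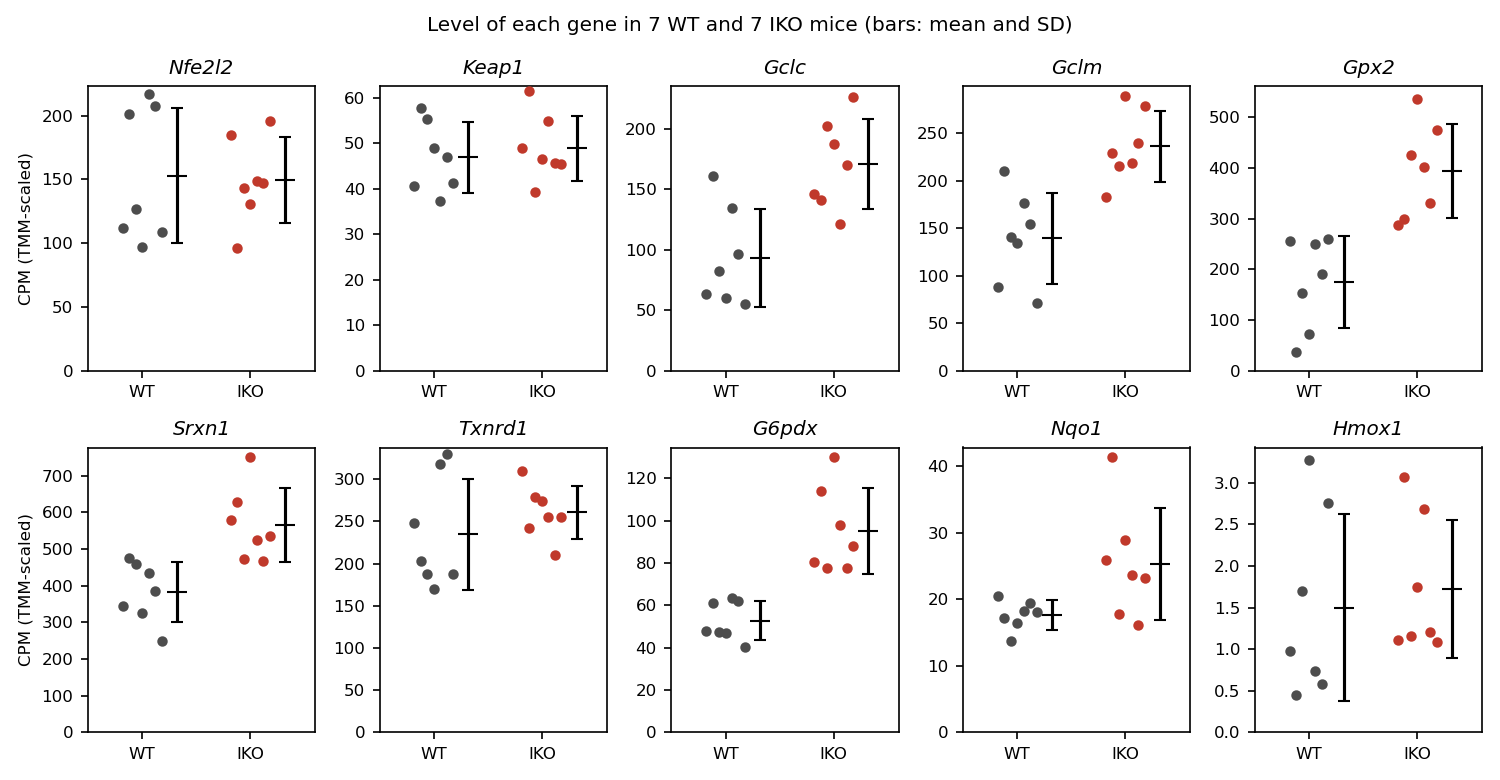
CPM of each of the 10 genes (vertical axes from 0, different for each gene) in WT (grey) and IKO (red) mice, 1 point per mouse, with the mean and SD of 7 mice. The IKO points of G6pdx (77.5 to 130 CPM) and Gpx2 (288 to 537 CPM) lie above all WT points, those of Gclc, Gclm and Srxn1 overlap the WT points in part, and those of Nfe2l2, Keap1 and Hmox1 lie within or close to the WT range.

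G6pdx encodes glucose-6-phosphate dehydrogenase, the enzyme that opens the pentose phosphate pathway and forms NADPH (ENSMUSG00000031400, chromosome X, 74409483 to 74429194, minus strand, GRCm38). Its level was between 40.6 (WT 7) and 63.4 CPM (WT 5) in WT mice, with a median of 48.1, and between 77.5 (IKO 3) and 130 CPM (IKO 4) in IKO mice, with a median of 88.1. The genotypes did not overlap, and IKO 4 and IKO 2 were the highest of all. The mean was 52.8 ± 9.19 CPM (SD, n = 7) in WT and 95.1 ± 20.3 CPM (SD, n = 7) in IKO mice. The fold was 1.80 (95% confidence interval 1.42 to 2.28, log2 fold change 0.85, standard error 0.16, adjusted p = 0.00804 by edgeR). The two-sided exact permutation test over all divisions of the mice into 7 and 7 gave p = 0.000583 for G6pdx, the smallest it can give. In the files G6pdx overlaps Ikbkg on the other strand, which shares 418 of its 3080 exonic bases (13.57%), and whether the reads were counted by strand is not given in the sources used here. Ikbkg had 6969 counts in all against 18066 for G6pdx, with a log2 fold change of 0.15 (adjusted p = 0.441 by edgeR).

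Gclc and Gclm encode the catalytic and the modifier subunit of glutamate-cysteine ligase, which catalyses the rate-limiting step of glutathione synthesis. Gclc (ENSMUSG00000032350, chromosome 9, 77754535 to 77794485, plus strand) was between 55.4 (WT 7) and 161 CPM (WT 2) in WT mice, with a median of 82.8, and between 122 (IKO 5) and 227 CPM (IKO 7) in IKO mice, with a median of 170. All 7 IKO mice lay above the WT median, and 4 of them above the highest WT mouse. The means were 93.5 ± 40.7 CPM (SD, n = 7) and 171 ± 37.2 CPM (SD, n = 7), a 1.83-fold difference (95% confidence interval 1.27 to 2.64, log2 fold change 0.87, standard error 0.25, adjusted p = 0.0437 by edgeR, exact permutation p = 0.00525).

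Gclm (ENSMUSG00000028124, chromosome 3, 122245557 to 122270732, plus strand) ran from 71.7 (WT 7) over a median of 141 to 210 CPM (WT 2) in WT mice. In IKO mice it ran from 182 (IKO 1) over a median of 229 to 288 CPM (IKO 4), and 6 IKO mice lay above every WT mouse. The means were 139 ± 48.0 CPM (SD, n = 7) and 236 ± 37.0 CPM (SD, n = 7), a 1.69-fold difference (95% confidence interval 1.23 to 2.34, log2 fold change 0.76, standard error 0.22, adjusted p = 0.0444 by edgeR, exact permutation p = 0.00117). The ratio of Gclm to Gclc FPKM, a level per gene length, was 0.774 to 1.34 in WT mice with a median of 0.833, and 0.637 to 1.07 in IKO mice with a median of 0.842, so its ranges overlapped.

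The calls of Gclc and Gclm were close to the threshold and were lost in most of the 14 fits with a single mouse removed. Both remained under the threshold in 2 of these 14 fits, those without WT 2 and without WT 5. In the others the adjusted p by edgeR was up to 0.0793 for Gclc and 0.0788 for Gclm. Over the 14 fits the log2 fold change was 0.77 to 1.06 for Gclc and 0.64 to 0.89 for Gclm. With WT 3 and IKO 4, the mice with the highest mitochondrial share, left out, Gclc had an adjusted p of 0.0999 and Gclm of 0.0995 by edgeR. The replicate number as a block gave 0.101 for Gclc and 0.0850 for Gclm. WT 1 and WT 7, the mice with the lowest summed enterocyte markers, had 63.3 and 55.4 CPM of Gclc and 88.2 and 71.7 CPM of Gclm, while WT 2, the mouse with the highest sum, had the highest WT level of both. WT 4 had a higher enterocyte sum (63210 CPM) than every other WT mouse except WT 2. Its Gclc was nevertheless 60.03 CPM, below that of WT 1, and its Gclm was 134 CPM. Without WT 1 and WT 7 the log2 fold change was 0.69 for Gclc (adjusted p = 0.125 by edgeR) and 0.55 for Gclm (adjusted p = 0.0953 by edgeR), and the part of the enterocyte content in these differences was not tested. G6pdx kept an adjusted p under 0.05 in all 14 fits with a single mouse removed and in the other 14 alternatives, from 3.5e-05 with DESeq2 to 0.0477.

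Gpx2 encodes a selenium-dependent glutathione peroxidase of the gastrointestinal epithelium that is known to be strongest at the crypt base (ENSMUSG00000042808, chromosome 12, 76792333 to 76795554, minus strand). It had the largest fold change of the 10 genes. The level ran from 37.2 (WT 2) over a median of 192 to 261 CPM (WT 7) in WT mice and from 288 (IKO 1) over a median of 402 to 537 CPM (IKO 4) in IKO mice, so the genotypes did not overlap. The lowest WT mice, WT 2 and WT 4 with 37.2 and 73.6 CPM, stood apart from the other 5, which lay between 153 and 261 CPM. The means were 175 ± 90.9 CPM (SD, n = 7) and 394 ± 93.2 CPM (SD, n = 7), a 2.26-fold difference (95% confidence interval 1.34 to 3.81) with a log2 fold change of 1.17 (standard error 0.36). In edgeR's fit across all genes the adjusted p was 0.0513 and missed the threshold, while the exact permutation test on Gpx2 alone gave 0.000583, the smallest it can give.

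WT 2, the mouse with the lowest Gpx2, also had the lowest summed crypt and stem cell markers of the WT mice (115 CPM, against up to 264 CPM in the others) and the lowest summed proliferation markers (121 CPM). WT 4, with 73.6 CPM of Gpx2, had a crypt sum of 196 CPM, and WT 7, with 261 CPM of Gpx2, had 203 CPM. IKO 5, with the lowest crypt sum of all mice (98.0 CPM), had 402 CPM of Gpx2. In IKO mice the crypt sum was 98.0 to 237 CPM, overlapping WT mice, and 0 of its 6 markers passed the test, while their median log2 fold change was -0.60. With single mice left out, Gpx2 passed in 2 of 14 fits, those without WT 2 (adjusted p = 0.0372 by edgeR) and without WT 5 (adjusted p = 0.0497 by edgeR). The part of the crypt content in the levels of Gpx2 was not tested. Gpx2 lies inside Fntb on the other strand with 0 shared exonic bases. Fntb had 5777 counts against 70807 for Gpx2, and its log2 fold change was 0.05 (adjusted p = 0.884 by edgeR).

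Srxn1 encodes sulfiredoxin, which restores peroxiredoxins inactivated by over-oxidation (ENSMUSG00000032802, chromosome 2, 152105516 to 152111376, plus strand). It was between 249 (WT 7) and 476 CPM (WT 2) in WT mice, with a median of 386, and between 466 (IKO 6) and 752 CPM (IKO 4) in IKO mice, with a median of 535. Of the IKO mice 5 lay above every WT mouse. The means were 382 ± 81.8 CPM (SD, n = 7) and 565 ± 99.8 CPM (SD, n = 7), a 1.48-fold difference (95% confidence interval 1.13 to 1.93, log2 fold change 0.57, standard error 0.18) that missed the threshold (adjusted p = 0.0597 by edgeR, exact permutation p = 0.00175). Srxn1 passed in 1 of the 14 fits with a single mouse removed, that without WT 2 (adjusted p = 0.0464 by edgeR).

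Txnrd1, the cytosolic thioredoxin reductase, returns thioredoxin to its active dithiol form with NADPH (ENSMUSG00000020250, chromosome 10, 82833951 to 82897712, plus strand). It ran from 170 (WT 4) over a median of 203 to 329 CPM (WT 6) in WT mice and from 210 (IKO 6) over a median of 256 to 310 CPM (IKO 1) in IKO mice. The IKO range lay within the WT range, since WT 5 and WT 6 held the highest levels of all 14 mice. The fold was 1.11 (95% confidence interval 0.853 to 1.45, log2 fold change 0.15, standard error 0.18, adjusted p = 0.588 by edgeR, exact permutation p = 0.252). The ratio of Srxn1 to Txnrd1 FPKM was 2.94 to 6.17 in WT mice, with a median of 3.49, and 4.27 to 6.89 in IKO mice, with a median of 5.26.

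Nqo1 encodes the quinone reductase that is widely read as a marker of NRF2 activity (ENSMUSG00000003849, chromosome 8, 107388225 to 107403206, minus strand). WT mice were close together, from 13.7 (WT 3) over a median of 18.05 to 20.5 CPM (WT 1), while IKO mice spread from 16.1 (IKO 6) over a median of 23.7 to 41.4 CPM (IKO 2). Of the IKO mice 5 lay above every WT mouse and IKO 3 and IKO 6 within the WT range. The means were 17.6 ± 2.21 CPM (SD, n = 7) and 25.3 ± 8.37 CPM (SD, n = 7), a 1.43-fold difference (95% confidence interval 1.08 to 1.90, log2 fold change 0.52, standard error 0.19) that missed the threshold (adjusted p = 0.0895 by edgeR, exact permutation p = 0.0198).

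Hmox1, the inducible heme oxygenase, was barely detected (ENSMUSG00000005413, chromosome 8, 75093621 to 75100589, plus strand). Its counts ran from 7 in WT 2 (95% exact Poisson interval 2.81 to 14.4, counting error only) to 78 per mouse. WT mice had 0.451 (WT 2) to 3.28 CPM (WT 4), with a median of 0.981, and IKO mice had 1.08 (IKO 7) to 3.06 CPM (IKO 2), with a median of 1.21, so that the IKO range lay within that of WT mice. The fold was 1.15 with a 95% confidence interval of 0.581 to 2.26, which leaves room for a difference in either direction (log2 fold change 0.20, standard error 0.46, adjusted p = 0.802 by edgeR, exact permutation p = 0.401). WT 4 and WT 7 had the most Hmox1 of the WT mice, 3.28 and 2.76 CPM. WT 7 also had the highest summed macrophage markers (303 CPM, against 58.3 to 239 CPM in the other WT mice and 40.4 to 121 CPM in IKO mice), and macrophages are a known site of heme oxygenase. WT 4, with the most Hmox1, had a macrophage sum of 96.2 CPM, and WT 3, with a sum of 239 CPM, had 1.70 CPM of Hmox1. The part of the macrophage content was not tested.

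The mRNA of NRF2 and KEAP1 did not pass the test. Nfe2l2 (ENSMUSG00000015839, chromosome 2, 75675513 to 75704641, minus strand) ran from 96.8 (WT 4) over a median of 126.9 to 217 CPM (WT 5) in WT mice and from 96.0 (IKO 2) over a median of 147.6 to 196 CPM (IKO 7) in IKO mice. WT 2, WT 5 and WT 6 lay between 202 and 217 CPM and the other 4 WT mice between 96.8 and 126.9 CPM, and the IKO mice lay between 96.0 and 196 CPM. The fold was 0.978 (95% confidence interval 0.703 to 1.36, log2 fold change -0.03, standard error 0.23, adjusted p = 0.938 by edgeR, exact permutation p = 0.969), and its sign changed under alternatives.

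Keap1 (ENSMUSG00000003308, chromosome 9, 21229730 to 21239361, minus strand) ran from 37.3 (WT 5) over a median of 47.1 to 57.8 CPM (WT 2) in WT mice and from 39.3 (IKO 3) over a median of 46.7 to 61.4 CPM (IKO 2) in IKO mice. The fold was 1.04 (95% confidence interval 0.848 to 1.28, log2 fold change 0.06, standard error 0.14, adjusted p = 0.799 by edgeR, exact permutation p = 0.606). An antisense gene at the locus, Gm16754, had 218 counts in all against 12219 for Keap1 and was lower in IKO mice (log2 fold change -1.28, adjusted p = 0.0481 by edgeR). The ratio of Nfe2l2 to Keap1 FPKM was 2.45 to 7.21 in WT mice, with a median of 3.41, and 1.93 to 5.32 in IKO mice, with a median of 3.9997.

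**Figure D2:**
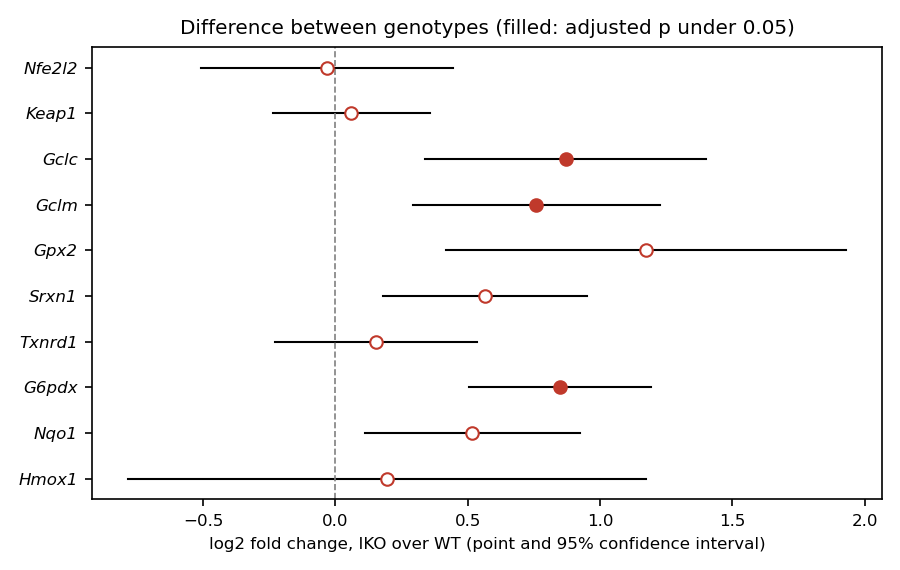
log2 fold change of each of the 10 genes, IKO over WT (horizontal axis), as a point with its 95% confidence interval, filled where the adjusted p by edgeR was under 0.05. The 3 filled points are Gclc, Gclm and G6pdx, the point of Gpx2 at 1.17 is the farthest from 0 and open, and the intervals of Nfe2l2, Keap1, Txnrd1 and Hmox1 cross 0.

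Between genes, levels can be compared only per length, as FPKM. Srxn1 was the highest in both genotypes, with 132 ± 28.3 FPKM (SD, n = 7) in WT and 201 ± 36.5 FPKM (SD, n = 7) in IKO mice. Gpx2 followed with 53.0 ± 27.7 and 123 ± 30.1 FPKM, though the gene length used for it, 3222 bases, equals its whole span in the files. In WT mice Nfe2l2 (39.5 ± 13.99 FPKM), Txnrd1 (32.4 ± 9.38), Gclc (24.3 ± 10.6) and Gclm (21.7 ± 7.51) came next, and neighbours in this order lay within 1 SD of each other. G6pdx (16.8 ± 3.05 FPKM), Nqo1 (11.1 ± 1.48) and Keap1 (9.77 ± 1.57) were lower, and Hmox1 was last with 0.833 ± 0.622 FPKM. In IKO mice Gclc reached 45.5 ± 10.1 FPKM, Gclm 37.6 ± 6.18 FPKM and G6pdx 31.0 ± 6.83 FPKM, beside 39.5 ± 8.82 FPKM of Nfe2l2 and 36.9 ± 4.38 FPKM of Txnrd1.

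The spread within a genotype also differed between the genes. The coefficient of variation of CPM in WT mice was 75.1% for Hmox1, 52.1% for Gpx2 and 43.5% for Gclc, but 16.5% for Keap1 and 12.5% for Nqo1. In IKO mice it was 47.9% for Hmox1 and 33.1% for Nqo1, and between 12.0% and 23.6% for the other 8 genes. It was lower in IKO than in WT mice for 8 of the 10 genes, the exceptions being Nqo1 and G6pdx (17.4% in WT and 21.4% in IKO mice), and this difference was not tested.

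The mice differed in how many of the genes were raised together. Between 7 and 10 of the 10 genes were above their WT mean on the log2 scale in each IKO mouse, with all 10 in IKO 5. In WT mice the number ran from 3 in WT 1, WT 4 and WT 7 to 8 in WT 5 and 9 in WT 6, so that the ranges of the genotypes overlapped. IKO 4, the mouse with the highest mitochondrial share, had the highest level of Gclm, Srxn1, G6pdx and Gpx2. WT 7 had the lowest level of Gclc, Gclm, Srxn1 and G6pdx and at the same time the highest WT level of Gpx2.

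**Figure D3:**
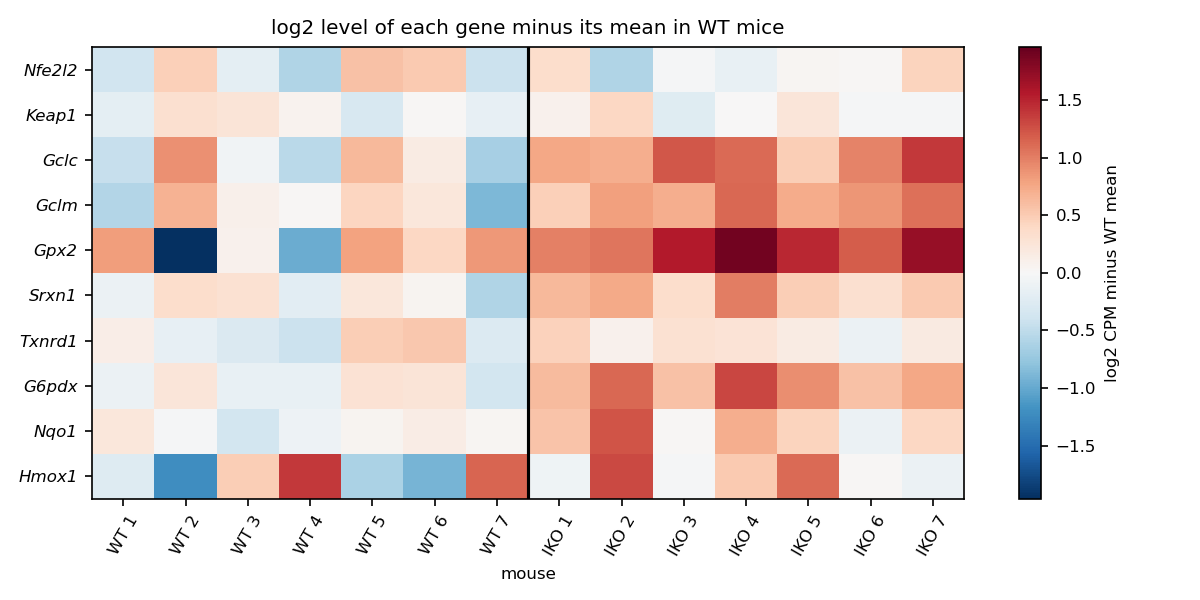
log2 CPM of the 10 genes (rows) in each mouse (columns) minus the mean of the WT mice, red above and blue below it. The rows of Gclc, Gclm, Gpx2, Srxn1 and G6pdx are red in all 7 IKO mice, WT 2 and WT 4 are the darkest blue for Gpx2, and the rows of Nfe2l2 and Keap1 show both colours in both genotypes.

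The wider antioxidant network was read from 8 lists with 86 genes, of which 81 were tested. Of these 81 genes 15 were higher and 1 lower in IKO mice by edgeR with Benjamini-Hochberg adjustment, 57 had a log2 fold change above 0 and 24 below 0, and the median was 0.39. Over all 13846 genes tested, 4.38% were called higher and 4.28% lower, and 6020 had a log2 fold change above 0 and 7826 below 0. Every IKO mouse lay above every WT mouse for 1.83% of all genes tested. These shares are also the background for the counts and the genes without overlap in each list below. The higher genes were 3 of NADPH supply (Me1, Pgd and Idh1), 4 peroxiredoxins and sestrins (Prdx1, Prdx6, Sesn1 and Sesn2), 4 glutathione transferases, and Glrx, Chac1, Cat and Esd, and the lower gene was Abcc1. The partners of NRF2, the other glutathione peroxidases and the genes of heme breakdown and ferritin gave 0 calls.

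Of 13 tested partners and regulators of NRF2, 0 were called, and their median log2 fold change was 0.17. The small MAF gene Maff had the largest change, 0.72 on the log2 scale, and missed the threshold (adjusted p = 0.0510 by edgeR). All 7 IKO mice lay above its WT median. The small MAF genes Mafg and Mafk differed on the log2 scale by -0.04 (adjusted p = 0.915 by edgeR) and 0.17 (adjusted p = 0.550 by edgeR). Sqstm1, the p62 protein that can sequester KEAP1, was 185 ± 47.6 CPM in WT and 286 ± 56.2 CPM in IKO mice (SD, n = 7), a log2 fold change of 0.63 that missed the threshold (adjusted p = 0.0524 by edgeR). Dpp3, another KEAP1-binding protein, differed by 0.36 on the log2 scale (adjusted p = 0.111 by edgeR). Nfe2l3 was too low to be tested.

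Among 8 genes of cytosolic NADPH supply, the group of G6pdx, 3 were higher and 0 lower, with a median log2 fold change of 0.55. Me1, the cytosolic malic enzyme, rose from 18.7 ± 8.07 to 83.9 ± 39.9 CPM (SD, n = 7), with a log2 fold change of 2.16 and a standard error of 0.34 (adjusted p = 0.00257 by edgeR). Pgd, which follows glucose-6-phosphate dehydrogenase in the pentose phosphate pathway, rose from 240 ± 34.1 to 432 ± 87.0 CPM (log2 fold change 0.85, adjusted p = 0.00875 by edgeR). Idh1, the cytosolic isocitrate dehydrogenase, rose from 258 ± 63.4 to 479 ± 127 CPM (log2 fold change 0.89, adjusted p = 0.0193 by edgeR). For each of Me1, Pgd and Idh1 all 7 IKO mice lay above every WT mouse. The non-oxidative enzymes Taldo1 and Tkt differed on the log2 scale by 0.57 (adjusted p = 0.0647 by edgeR) and 0.53 (adjusted p = 0.120 by edgeR).

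Of 15 thioredoxins, peroxiredoxins and sestrins, the group of Srxn1 and Txnrd1, 4 were higher and 0 lower, with a median log2 fold change of 0.40. Prdx6 rose from 139 ± 30.4 to 306 ± 89.9 CPM (SD, n = 7), with no overlap (log2 fold change 1.14, standard error 0.21, adjusted p = 0.00739 by edgeR). Prdx1, a substrate of sulfiredoxin, differed by 0.77 on the log2 scale (adjusted p = 0.0251 by edgeR). The sestrins Sesn1 and Sesn2, stress-induced regulators of mTORC1, differed on the log2 scale by 0.78 (adjusted p = 0.0334 by edgeR) and 0.74 (adjusted p = 0.0298 by edgeR). The sestrin Sesn3 went the other way, with -0.61 (adjusted p = 0.151 by edgeR) and 0 IKO mice above its WT median. Of the 15 genes, 13 had a log2 fold change above 0 and 2 below 0. The log2 fold change was 0.40 for Txn1 (adjusted p = 0.172 by edgeR) and 0.29 for Prdx5 (adjusted p = 0.456 by edgeR).

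In glutathione synthesis and recycling, 2 of 11 genes were higher and 0 lower, and the median log2 fold change was -0.07. Glrx, the cytosolic glutaredoxin, rose from 368 ± 87.4 to 664 ± 155 CPM (SD, n = 7), with no overlap (log2 fold change 0.85, adjusted p = 0.0217 by edgeR). Chac1, which degrades glutathione, rose from 1.62 ± 0.399 to 4.11 ± 2.12 CPM (log2 fold change 1.35, adjusted p = 0.0283 by edgeR). The other genes were spread on both sides of 0, with -0.13 for Ggt1 (adjusted p = 0.768 by edgeR) and -0.07 for Slc3a2 (adjusted p = 0.916 by edgeR). Of the 11 genes, 4 had a log2 fold change above 0 and 7 below 0. Farther from 0 among those not called, Gsr had 0.67 (adjusted p = 0.0654 by edgeR), with 6 IKO mice above every WT mouse. Slc7a11 had -1.41 (adjusted p = 0.236 by edgeR) and was near the floor, with 0 counts in IKO 4.

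None of the 4 other glutathione peroxidases tested was called, 0 higher and 0 lower, with a median log2 fold change of 0.26. Of the 4 genes, 2 had a log2 fold change above 0 and 2 below 0. Gpx3 had the largest change of this list, -0.90 on the log2 scale, and missed the threshold (adjusted p = 0.177 by edgeR). Gpx1 was 175 ± 61.3 CPM in WT and 310 ± 129 CPM in IKO mice (SD, n = 7), a log2 fold change of 0.82 (adjusted p = 0.0833 by edgeR). Gpx4, which reduces lipid peroxides, differed by 0.56 on the log2 scale (adjusted p = 0.215 by edgeR), and Gpx8 was too low to be tested.

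Of 5 superoxide dismutase and catalase genes 1 was higher and 0 lower, with a median log2 fold change of 0.37. Cat, the catalase of peroxisomes, rose from 308 ± 96.3 to 562 ± 75.0 CPM (SD, n = 7), with no overlap (log2 fold change 0.87, adjusted p = 0.0248 by edgeR). Sod1 and its copper chaperone Ccs differed on the log2 scale by 0.60 (adjusted p = 0.165 by edgeR) and 0.34 (adjusted p = 0.349 by edgeR). Sod3, the 1 gene of this list below 0, had its largest change, -1.78, and missed the threshold (adjusted p = 0.0773 by edgeR). Its level was low, with 7.39 ± 7.85 CPM in WT and 2.15 ± 0.756 CPM in IKO mice. Of 7 genes of heme breakdown and ferritin, the group of Hmox1, 0 were called, with a median of 0.23, and the ferritin chains differed on the log2 scale by 0.52 (Fth1, adjusted p = 0.121 by edgeR) and 0.73 (Ftl1, adjusted p = 0.145 by edgeR). Por had the largest change of this list, 1.28 on the log2 scale, and missed the threshold (adjusted p = 0.0609 by edgeR). For Por 6 IKO mice lay above every WT mouse, while IKO 4, with 70.8 CPM, lay below every WT mouse.

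Among 18 other NRF2 targets tested, the group of Nqo1, 5 were higher and 1 lower, with a median log2 fold change of 0.62. Glutathione transferases made up 4 of the 5, which were Gsta4, Gsta1, Gstm3 and Gstp1, and Esd was the other gene. Gsta4 rose from 18.9 ± 5.996 to 87.7 ± 59.4 CPM (SD, n = 7), with no overlap (log2 fold change 2.22, standard error 0.37, adjusted p = 0.00407 by edgeR). Gsta1 rose from 31.2 ± 16.2 to 125 ± 96.2 CPM (log2 fold change 2.01, adjusted p = 0.0132 by edgeR), and Gstm3 from 20.4 ± 12.9 to 61.7 ± 37.9 CPM (log2 fold change 1.59, adjusted p = 0.0420 by edgeR). These transferases belong to families of similar genes, among which reads may be divided, so the split between single members is uncertain. Abcc1, an exporter of glutathione conjugates, fell by 1.24 on the log2 scale, from 5.98 ± 3.11 to 2.53 ± 0.869 CPM (adjusted p = 0.0446 by edgeR). Its level was low, with a mean of 0.277 FPKM over all mice and 12 counts in IKO 4. It was highest in WT 4 (10.9 CPM), the mouse with the most smooth muscle and fibroblast markers, and their part was not tested. Cbr1 differed by 0.64 on the log2 scale (adjusted p = 0.135 by edgeR) and Ptgr1 of -0.03 (adjusted p = 0.952 by edgeR). Gsta2, Cbr3 and Aldh3a1 were too low to be tested.

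The calls of Me1, Pgd, Idh1, Prdx6, Glrx, Gsta1 and Gsta4 were kept in all 14 fits with a single mouse removed, and those of Me1, Pgd, Prdx6 and Gsta4 in all 28 alternatives. Cat lost its call without IKO 5 (adjusted p = 0.0510 by edgeR) and Prdx1 without WT 4, WT 7 or IKO 1 (up to 0.0612). Chac1 lost it without WT 7, IKO 1, IKO 5 or IKO 7 (up to 0.0735), and Sesn2 without WT 4, WT 7, IKO 4 or IKO 5 (up to 0.0679). Sesn1 kept its call in 6 of the 14 fits, Gstm3 in 5 and Abcc1 in 4, with an adjusted p by edgeR of at most 0.0762, 0.0829 and 0.0825 in the others. Sqstm1 passed without WT 2 (adjusted p = 0.0495 by edgeR) and without WT 4 (adjusted p = 0.0442 by edgeR).

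**Figure D4:**
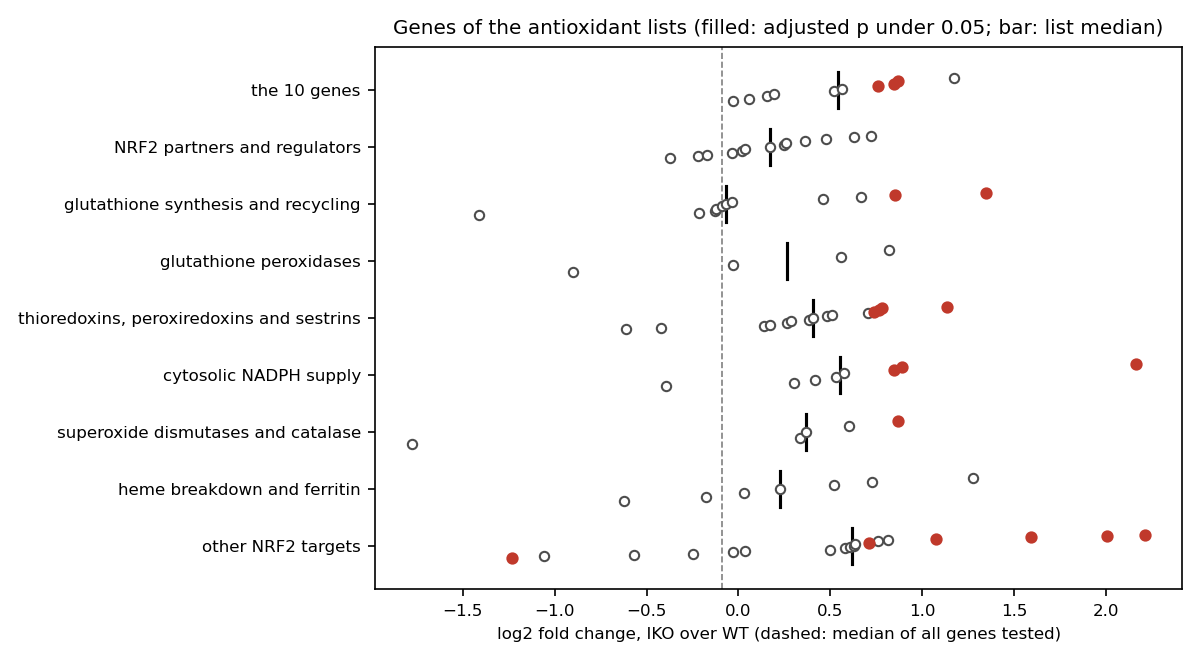
log2 fold change of every tested gene, IKO over WT (horizontal axis), for the 10 genes and the 8 lists of the antioxidant network (rows), filled where the adjusted p by edgeR was under 0.05, with a bar at the median of each row and a dashed line at the median of all genes tested (-0.09). The only filled point below 0 is Abcc1 at -1.24, and the list medians run from -0.07 for glutathione synthesis and recycling to 0.62 for other NRF2 targets.

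Across the 28 other ways of running the comparison, the 10 genes fell into groups. G6pdx passed in 28 of 28, Gclc and Gclm in 10 of 28 each, Gpx2 in 7, Srxn1 in 5 and Nqo1 in 1, while Nfe2l2, Keap1 and Txnrd1 passed in 0 of 28 and Hmox1 in 0 of 27. With DESeq2, the tool of the study, 6 of the 10 genes passed, which were Nqo1, Gclc, Gclm, Srxn1, G6pdx and Gpx2, all higher in IKO mice, beside 2578 genes in all (16.6% of those tested by DESeq2). These 6 are also the genes with an exact permutation p under 0.05 when each is tested alone, without adjustment for the number of genes. Of all 13846 genes, 27.2% had such an exact permutation p under 0.05.

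**Figure D5:**
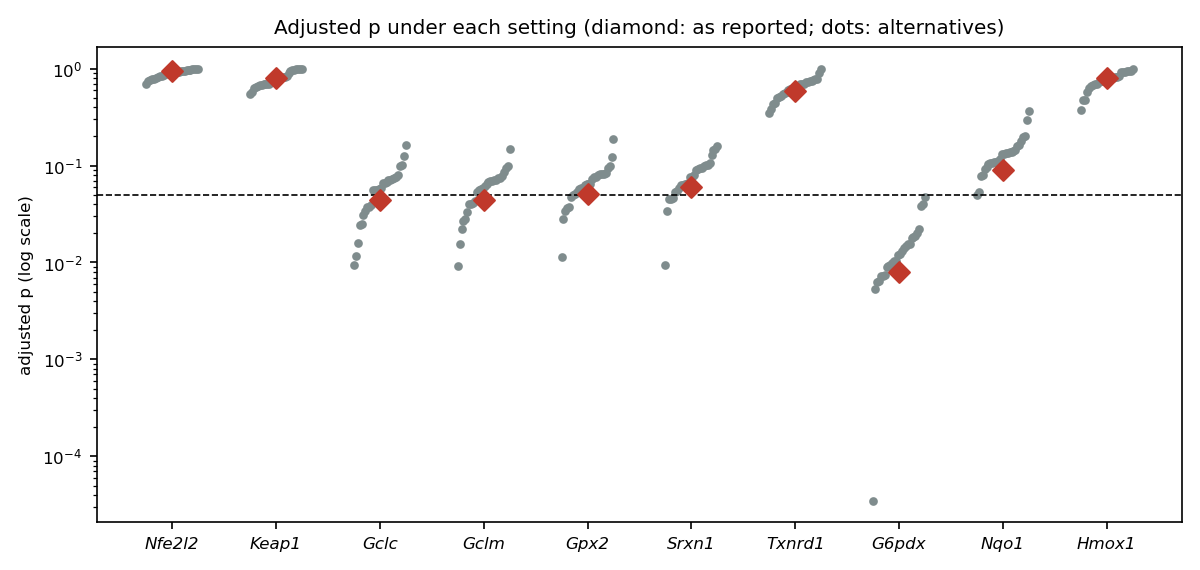
Adjusted p (vertical axis, log scale) of each of the 10 genes, as reported with edgeR (diamonds) and under each alternative (dots), with a dashed line at 0.05. All dots of G6pdx lie below the line, those of Gclc, Gclm, Gpx2 and Srxn1 on both sides of it, and those of Nfe2l2, Keap1, Txnrd1 and Hmox1 above it.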

How the data were processed

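RNA of the ileum mucosa was measured in 14 mice, 7 WT and 7 IKO. The deposited counts are whole numbers of reads per gene without normalization, made by the authors with HISAT2 2.0.5 and featureCounts 1.5.0-p3 from paired-end reads on mm10, per the submitters' processing notes. Annotation release, strand setting and read filters are not given in the sources used here. The deposited FPKM are counts over gene length, scaled by DESeq2 size factors with 1 common constant (largest relative departure 5.33e-15), so they are not scaled by the sample total. Sample groups were taken from the titles, and columns named KO were read as IKO.

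After filterByExpr and TMM, the genotypes were compared by the quasi-likelihood F test of edgeR 4.0.16 under R 4.3.3 (glmQLFit, glmQLFTest). The model held genotype alone, and p-values were adjusted by Benjamini-Hochberg over 13846 genes. The standard error is the log2 fold change divided by the square root of F. Confidence intervals are at 95%. The log2 CPM used a prior count of 2. Permutation tests are exact and two-sided over all divisions into 7 and 7, on log2 CPM. The study used DESeq2, which is here an alternative (version 1.42.0), since the edgeR test fits counts of this kind too and was set as the main test. Others were limma 3.58.1 on log2(FPKM + 1) and log2(FPKM + 0.1), for genes with FPKM of at least 0.5 in 7 samples or unfiltered, limma-voom with quality weights, other normalizations and filters, at least 10 counts in every sample among them, the replicate number as a block, and samples left out. The fit without WT 1 and WT 7 was chosen after seeing the data. The method was tested on simulated data.

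Depth was 14749669 to 21557468 counts per sample, and the least counted of the 10 genes was Hmox1, with 7 counts in WT 2. Genes named are the 10, Ncor1, and from each list up to 4 called genes by size of change and the 2 uncalled genes with the highest mean FPKM. Gstp1, Esd, Gsr, Slc7a11, Maff, Mafg, Mafk, Sesn3, Sod3, Gpx3 and Por were named beyond this rule after their values were seen. The 10 genes, the lists and the alternatives were chosen with earlier results of these data known. Promoter sequences are from RefSeq (GRCm38.p6).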

Additional observations from a re-analysis of the deposited data

Results flagged for a closer look

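In groups of 7 mice, the gap of the most extreme mouse to its neighbour was compared with the range of the group, over 86 groups for 43 measures, and a gap above Dixon's critical value at 95% was noted. There were 6 such gaps, where chance gives about 4.3. The mitochondrially encoded share of counts was highest in WT 3 among WT mice (gap 0.6757 of the range) and in IKO 4 among IKO mice (0.9444), and the TMM factor was lowest in IKO 4 (0.7952). On the log2 CPM scale, Slc3a2 was lowest in IKO 4 among IKO mice (0.579), Gpx1 lowest in WT 2 among WT mice (0.6069) and Tkt highest in IKO 2 among IKO mice (0.664). None of the 10 genes had such a gap in either genotype.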

How the results depend on the processing

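Of the 10 genes 3 passed as reported, all higher in IKO mice. The number, all higher, was 6 with DESeq2, 5 with limma on log2(FPKM + 1), on log2(FPKM + 0.1) and with limma-voom and quality weights, and 1 with no filter, with limma without a filter, with the replicate block, without WT 3 and IKO 4, without WT 3, WT 4 and IKO 4, and without WT 1 and WT 7. With single mice left out it was 1 to 5. G6pdx was the gene that passed throughout. The number of genes called among all genes, 1200 as reported (50.6% of them higher), was 2578 with DESeq2, 508 with no filter (68.1%), 614 with limma without a filter (73.9%), 1889 with quality weights, 362 with the replicate block (62.4%), 648 without WT 3 and IKO 4 (65.7%), 433 without WT 3, WT 4 and IKO 4 (63.7%) and 413 without WT 1 and WT 7, and it was 515 to 1371 with single mice left out, the lowest without IKO 5 and the highest without WT 2. The share higher was 47.7% to 65.0% with single mice left out, 37.8% with upper-quartile normalization and 68.3% and 69.0% with limma on log2(FPKM + 1) and log2(FPKM + 0.1). The median log2 fold change of all genes moved from -0.09 to -0.32 with no filter and to 0.02 and 0.04 with these limma fits. The causes were not tested.

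The sign changed only in genes near 0 that did not pass. Nfe2l2 had a log2 fold change of 0.0025 with DESeq2, 0.045, 0.047 and 0.045 with the limma fits on FPKM with pseudocounts of 1, 0.1 and 1 without a filter, 0.014 with the replicate block, and -0.12 to 0.075 with single mice left out. In the same order of limma fits Ggt1 had 0.042, 0.043 and 0.042, Slc3a2 0.0036, 0.0034 and 0.0036, and Ptgr1 0.13, 0.13 and 0.13. With quality weights Txnrd1 had -0.039, Ggt1 0.14, Slc3a2 0.084 and Ptgr1 0.045, with the replicate block Ggt1 0.0011 and Ptgr1 0.069, and with DESeq2 Ptgr1 0.0036. With single mice left out Hmox1 ran from -0.0010 to 0.51, Ggt1 from -0.27 to 0.060, Slc3a2 from -0.20 to 0.095 and Ptgr1 from -0.18 to 0.11. Same-numbered mice had correlated deviations above 0.1 in 1 of 7 pairs (-0.305 to 0.232), and 0 of 7 mice matched their own number best. What the numbers stand for is not given in the sources used here, and correlations of 7 pairs cannot settle whether such mice shared a litter or cage. Hmox1 gave no value with at least 10 counts required in every sample. Abcc1 gave none in the filtered limma fits. The exact permutation p on log2(FPKM + 1) was under 0.05 for the same 6 genes. Depth limits Hmox1 most.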
